A study of Mus musculus with 6 samples.

Results

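The 10 genes described here, Tcf7l2, Prkcd, Plekhg1, Rorb, Lef1, Ntng1, Gbx2, Slc17a6, Chrnb4 and Adarb1, are genes with strong expression in thalamus or habenula, the diencephalic regions that lie next to the hippocampus. They were measured in mouse hippocampus with 25 probe sets, out of 18193 genes measured with 34945 probe sets of a single gene symbol. They were chosen by name with their levels in these mice already known, most of them for high values in a single mouse, so those levels and the differences between the genotypes are given as a description. Each gene is followed by its brightest probe set, the one with the highest mean over all 6 arrays, unless another is named.

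Hippocampal RNA from 6 individual mice was hybridized to Affymetrix arrays. The 3 duplication mice were Dp(11)17/+, with an engineered extra copy of a segment of chromosome 11 in every cell, and their 3 wild-type controls were +/+. What the groups share, by their labels, is the male sex, an age of 11 to 14 weeks and the strain, C57BL/6-Tyr c-Brd. The series is presented as a model of Potocki-Lupski syndrome and compares the genotypes. Values are on the log2 scale, so that a difference of 1 is a doubling of the signal.

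Thalamic relay neurons receive sensory and motor signals and pass them to the cortex with glutamate as transmitter. They keep the transcription factor Tcf7l2 through adult life, and its close relative Lef1, another partner of beta-catenin in Wnt signalling, is made in the same nuclei. The medial habenula, a small nucleus above the thalamus, sends axons to the midbrain and is known for its nicotinic acetylcholine receptors, which hold the beta4 subunit encoded by Chrnb4.

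Before the results, some arrays stood apart. In duplication mouse 1, labelled male, Xist, which females transcribe from their silenced X chromosome, reached 9.13, whereas the other 5 mice had 3.06 to 3.69, and the Y-linked Eif2s3y was at 2.48, below the 5.41 to 6.01 of the others. Duplication mouse 3 carried high values of most listed thalamic and striatal genes and low values of most hippocampal ones, given beside the results below. The genotype labels were borne out by Alkbh5, a gene of the extra segment, at 8.64 to 8.66 in the duplication mice and 7.77 to 8.10 in wild type. Array medians were 3.74 to 3.79, and 23.9% to 24.9% of probe sets had a log2 value of 6 or more. Actin controls at the 3′ end exceeded those at the 5′ end, a sign of RNA quality, by 1.74 in duplication mouse 3 and by 1.45 to 1.69 elsewhere. For the Gapdh controls the excess in duplication mouse 3 was 0.44, within the 0.33 to 0.57 of the other mice.

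For 9 of the 10 genes the highest level belonged to the same mouse. The mean over them was 6.90 in duplication mouse 3, against 5.08 and 5.06 in duplication mice 1 and 2 and 5.18, 5.26 and 5.06 in the wild-type mice 1, 2 and 3. Measured from the wild-type mean, duplication mouse 3 lay 1.73 higher, while duplication mice 1 and 2 lay at -0.09 and -0.11. In that mouse 9 of the 10 genes had the highest value of the 6 mice, which held for 18.4% of all genes, and 7 of 10 lay at least 1 above the wild-type mean, which held for 1.22%. For 9 of the 10 genes that mouse exceeded all 3 wild-type mice, and for 0 it lay below them, beside 23.4% and 32.1% of all genes. Duplication mouse 1 lay above for 1 and below for 4, beside 18.2% and 29.5%, and duplication mouse 2 above for 2 and below for 4, beside 21.7% and 27.1%. The genes were chosen for such values, so nothing is read from these counts. Because the arrays measure whole tissue, more cells of a type and more RNA per cell cannot be told apart.

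**Figure D1:**
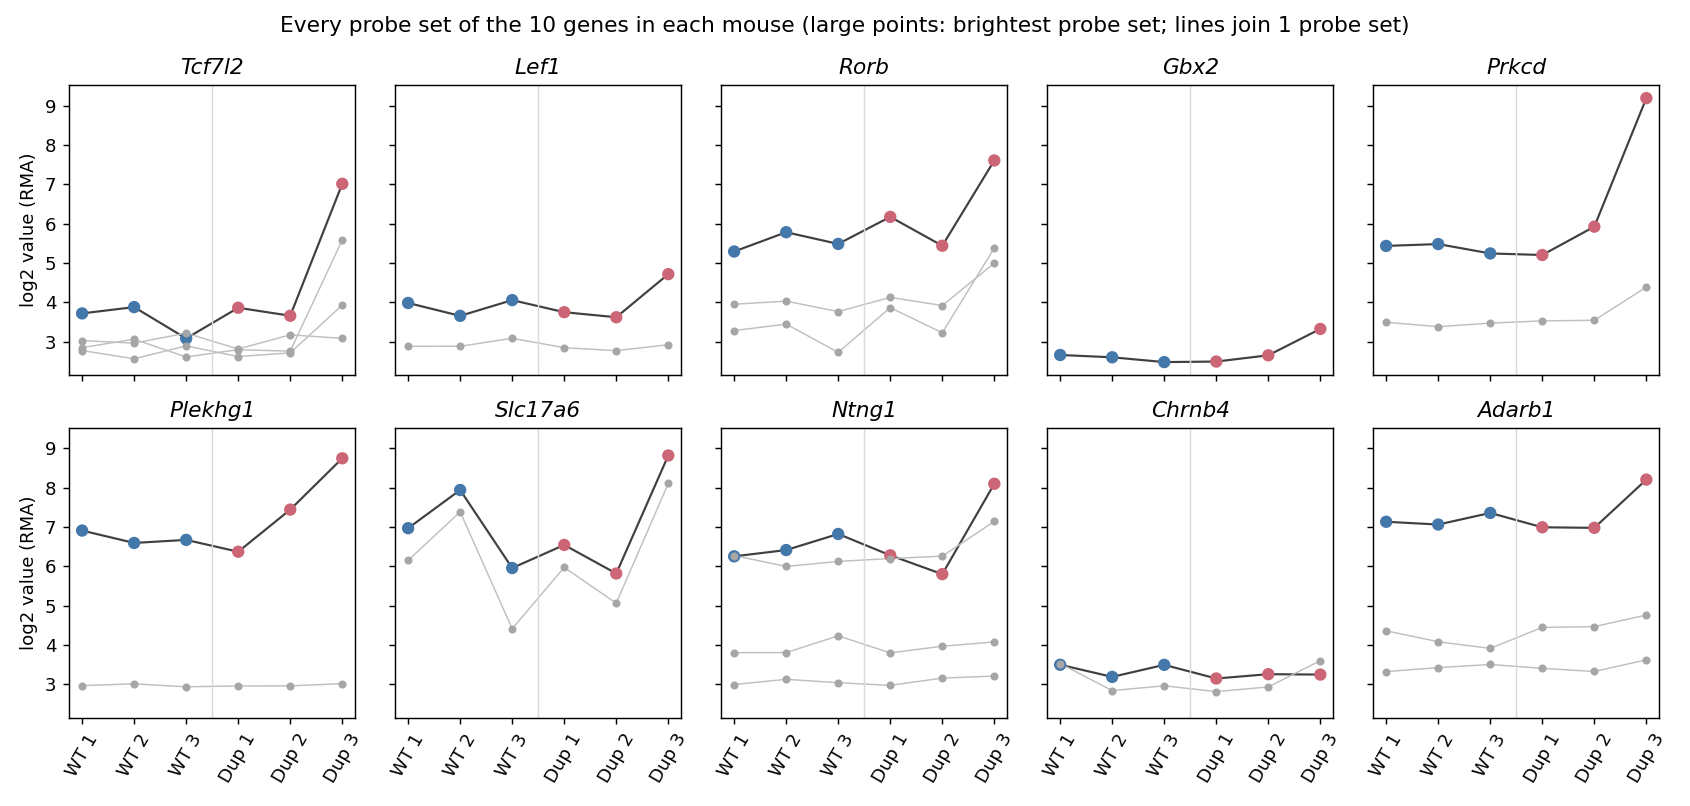
Log2 value (vertical axis) of each of the 25 probe sets of the 10 genes in the 3 wild-type (WT) and 3 duplication (Dup) mice; large points are the brightest probe set of a gene, coloured by group, grey points the others, and lines join the values of 1 probe set without implying an order of mice. Dup 3 is the highest mouse for 9 of the 10 brightest probe sets, the exception being Chrnb4.

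None of the 10 genes lies on chromosome 11, which carries the extra segment. They are spread over chromosomes 1, 3, 7, 9, 10, 14 and 19, with Tcf7l2 and Rorb on 19, Lef1 and Ntng1 on 3, and Plekhg1 and Adarb1 on 10. RefSeq promoters of the assembly GRCm38.p6 were found for all 10, 17 in all, and the 250 bases before each start were searched on both strands. The letters CTTTGA, the core that Tcf7l2 and Lef1 bind, stood in 2 of the 17, beside 13.8% of 32851 promoters. AGGTCA, the core of nuclear receptors such as Rorb, stood in 0, beside 14.0%, and the homeodomain core TAATTA in 1, beside 4.84%. TATAAA stood in 3, beside 12.4%, and the GC box GGGCGG in 10, beside 32.7%. Their GC content had a median of 61.2%, beside 52.4% over all promoters. The windows of a gene can overlap, and some reach into the annotated span of the gene, where the CTTTGA matches of Prkcd and Lef1 lie.

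The sequences of 3 of the genes are given, with the GC box on either strand in capitals. All 3 hold a GC box, which 10 of the 17 windows did, so they do not show the whole range. That of Tcf7l2 is chr19:55741560-55741796 on the plus strand, that of Rorb chr19:19111197-19111446 on the minus strand and that of Slc17a6 chr7:51621580-51621829 on the plus strand, each ending before the first annotated base of the gene. For Prkcd, 30 bases around the CTTTGA match, chr14:30626330-30626359 on the minus strand, are given with the match in capitals, where it reads on the opposite strand. Unlike the other 3, this stretch lies within the annotated span of its gene. No GC box overlaps a CTTTGA match in the printed stretches.
Tcf7l2: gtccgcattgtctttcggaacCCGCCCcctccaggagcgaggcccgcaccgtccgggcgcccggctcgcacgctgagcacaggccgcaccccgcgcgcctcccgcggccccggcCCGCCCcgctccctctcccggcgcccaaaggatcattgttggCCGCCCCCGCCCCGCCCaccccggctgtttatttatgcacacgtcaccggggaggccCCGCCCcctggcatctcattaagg
Rorb: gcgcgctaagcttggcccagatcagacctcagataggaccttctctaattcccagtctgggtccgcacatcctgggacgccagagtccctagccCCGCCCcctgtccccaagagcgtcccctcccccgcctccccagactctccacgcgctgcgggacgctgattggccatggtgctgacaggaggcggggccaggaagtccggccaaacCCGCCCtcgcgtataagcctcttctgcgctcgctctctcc
Slc17a6: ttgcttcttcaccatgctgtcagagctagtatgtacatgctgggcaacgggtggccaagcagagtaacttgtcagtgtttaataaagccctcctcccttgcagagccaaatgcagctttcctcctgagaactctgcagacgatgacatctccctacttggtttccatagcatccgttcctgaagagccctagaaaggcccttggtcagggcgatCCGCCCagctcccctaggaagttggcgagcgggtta
Prkcd: aggacttgcaacTCAAAGaggctgagacgc
The stretch before Tcf7l2 holds 6 GC boxes, some adjoining or overlapping, that before Rorb 2 and that before Slc17a6 1. No motif is shared by all 10 genes in these windows, and such matches show letters only.

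Among the transcription factors, Tcf7l2 (1429428_at) stood furthest apart. Its log2 values were 3.86, 3.66 and 7.01 in duplication mice 1, 2 and 3 and 3.72, 3.88 and 3.08 in wild-type mice. Duplication mouse 3 lay 3.46 above the wild-type mean of 3.56, and the other duplication mice lay within the wild-type range. Values in 3 of the 6 mice, and the wild-type mean, were below the array medians, so the fold of 11.0 that this distance gives rests on a dim signal. Among all 18193 genes ordered by the distance of this mouse from wild type, Tcf7l2 came 5th. Of its 4 probe sets, 3 were highest in duplication mouse 3, with 5.58 and 3.93 there at the dimmer 1429427_s_at and 1425229_a_at. The fourth, 1426639_a_at, lay between 2.81 and 3.21 in all mice, so the probe sets of Tcf7l2 differed.

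Lef1 (1454734_at) was dim. Its values were 3.75, 3.62 and 4.71 in the duplication mice and 3.98, 3.65 and 4.05 in wild type, and 3 of the 6 lay below the median of their array. The highest value, that of duplication mouse 3, was 0.82 above the wild-type mean, and the second probe set lay between 2.77 and 3.08 in all mice, with wild-type mouse 3 the highest.

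Rorb (1439862_at) encodes a nuclear receptor of sensory relay nuclei that is also made in layer 4 of the neocortex. Its values were 6.17, 5.44 and 7.61 in the duplication mice and 5.29, 5.78 and 5.48 in wild type. The third mouse of the duplication group was 4.25-fold above the wild-type mean. Here duplication mouse 1 also lay above all 3 wild-type mice, by 0.65 over their mean, the 1 such case for that mouse among the 10 genes. All 3 probe sets of Rorb had duplication mouse 3 highest and duplication mouse 1 next.

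Gbx2 (1420337_at), a homeobox gene needed for the making of thalamic neurons, stayed below the array median in all 6 mice. Its single probe set gave 2.49, 2.65 and 3.32 in the duplication mice and 2.66, 2.60 and 2.48 in wild type. The highest value was again that of duplication mouse 3, 0.74 above the wild-type mean.

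Of the signalling genes, Prkcd (1422847_a_at) encodes protein kinase C delta, an enzyme abundant in relay neurons. It had 5.20, 5.92 and 9.19 in the duplication mice and 5.43, 5.48 and 5.24 in wild type. Duplication mouse 3 was 14.0-fold above the wild-type mean, the largest distance among the 10 genes and the 4th among all genes. Duplication mouse 2 lay 0.54 above that mean and above each wild-type mouse, while duplication mouse 1 lay below all of them. Plekhg1 (1435363_at), which encodes a protein with a pleckstrin homology domain, had the same order of duplication mice. Its values were 6.37, 7.44 and 8.75 in the duplication mice and 6.91, 6.59 and 6.67 in wild type. Duplication mouse 3 was 4.06-fold and duplication mouse 2 1.64-fold above the wild-type mean.

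Slc17a6 (1428379_at), the vesicular glutamate transporter VGLUT2 of thalamic and other subcortical neurons, varied among wild-type mice as well. Its values were 6.54, 5.81 and 8.82 in the duplication mice and 6.97, 7.94 and 5.95 in wild type. Duplication mouse 3 was 3.64-fold above the wild-type mean and 0.88 above the next mouse, wild-type mouse 2. The wild-type standard deviation of 0.99 (n = 3) ranked 50th among 18193 genes, and those of the other 9 genes were 0.09 to 0.42. Both probe sets of Slc17a6 put wild-type mouse 2 next to duplication mouse 3, with 7.38 and 8.11 at the dimmer probe set. The high value of wild-type mouse 2 was thus seen with both, and the groups overlapped widely.

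Ntng1 (1449286_at) encodes netrin-G1, a membrane-anchored protein of thalamocortical axons. Its values were 6.28, 5.80 and 8.10 in the duplication mice and 6.25, 6.41 and 6.82 in wild type. Duplication mouse 3 was 3.04-fold above the wild-type mean, and duplication mouse 2 was the lowest of the 6. Of its 4 probe sets, 2 lay at least 1 above the wild-type mean in duplication mouse 3, and the dim 1426338_a_at was highest in wild-type mouse 3.

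Chrnb4 (1425849_at) did not share the pattern. Its values were 3.14, 3.25 and 3.24 in the duplication mice and 3.49, 3.18 and 3.49 in wild type, all below the median of their arrays. At its second probe set duplication mouse 3 had 3.60, close to the 3.52 of wild-type mouse 1. A high level of this defining habenular subunit was thus seen in no mouse. Adarb1 (1434932_at) encodes the editing enzyme ADAR2, which recodes glutamate receptor transcripts. It had 6.99, 6.98 and 8.20 in the duplication mice and 7.13, 7.06 and 7.36 in wild type, and duplication mouse 3 was 2.03-fold above the wild-type mean.

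**Figure D2:**
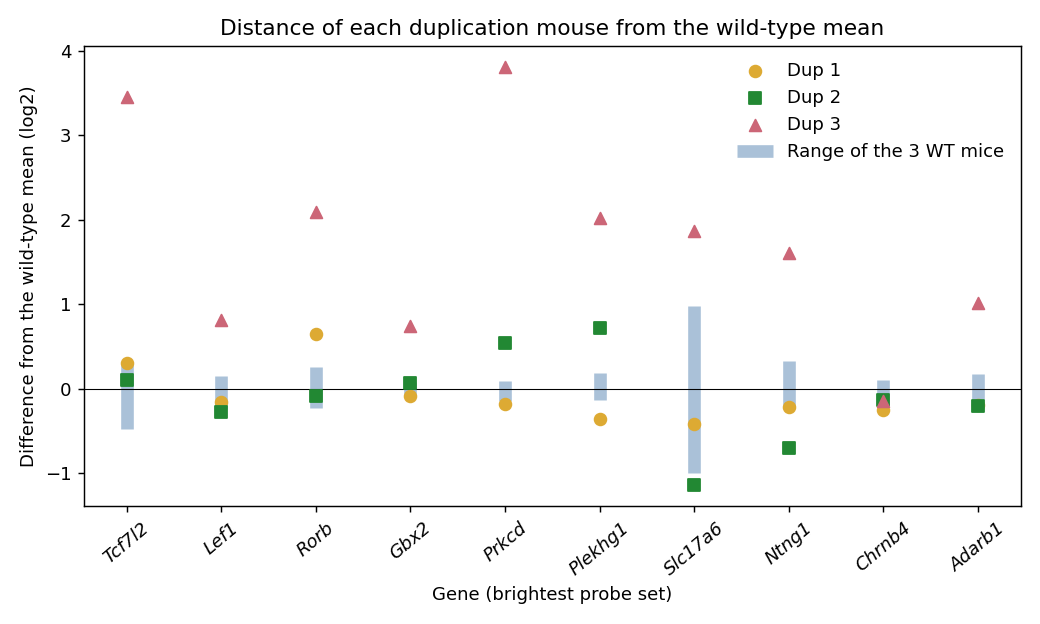
Log2 difference (vertical axis) from the mean of the wild-type mice for each duplication (Dup) mouse, for the brightest probe set of each gene; bars span the 3 wild-type (WT) mice. Dup 3 lies above the bar for 9 genes, by 3.81 over the wild-type mean for Prkcd and 0.74 for Gbx2, and within it for Chrnb4, while Dup 1 is above the bar for Rorb and Dup 2 for Prkcd and Plekhg1.

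Over all 25 probe sets, duplication mouse 3 was highest in 21, against 16.3% of all probe sets. It lay at least 1 above the wild-type mean in 13 of 25, beside 0.893% of all probe sets. These were 10 of the 11 brighter probe sets, which averaged at least 4, and 3 of the 14 dimmer ones. Most of the genes were chosen for high values in this mouse, and probe sets of the same gene are not separate cases. Nothing is therefore read from these counts either.

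Between the genotypes, the groups overlapped for all 10 genes, so 0 of 10 were separated, where 8.29% of all genes were. The median log2 fold change of duplication over wild type was 0.24, with 9 genes higher and 1 lower, beside a median of -0.02 over all genes, 41.7% of which were higher. Limma with Benjamini-Hochberg adjustment called 0 of the 10 genes and 0 of 45037 probe sets (0%), and at an unadjusted p under 0.05 it called 0 of the 10 genes, beside 3.17% of all genes. The largest log2 fold changes were 1.39 (SE 0.93) for Prkcd, 1.29 (SE 0.84) for Tcf7l2, 0.89 (SE 0.49) for Rorb and 0.80 (SE 0.53) for Plekhg1. Those of the other genes lay between -0.18 for Chrnb4 and 0.24 for Gbx2. Without duplication mouse 3 the median was -0.10. Prkcd then had 0.18, Tcf7l2 0.20, Plekhg1 0.18 and Rorb 0.29, and the other 6 genes lay below 0, from -0.01 for Gbx2 to -0.78 for Slc17a6.

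Of all 25 probe sets of the 10 genes, 2 had groups that did not overlap, as had 8.01% of all probe sets. Neither was the brightest of its gene. These were 1443968_at of Adarb1, with 4.44, 4.46 and 4.76 in duplication and 4.36, 4.08 and 3.91 in wild type, and 1442256_at of Prkcd, with 3.53, 3.54 and 4.39 against 3.49, 3.38 and 3.47. That of Adarb1 was the 1 probe set of the 25 at an unadjusted p under 0.05, a threshold passed by 2.82% of all probe sets. Both were chosen after their values were seen.

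All of the 10 genes but Chrnb4 had their highest value in duplication mouse 3. For Gbx2 that value was 3.32, still below the array median, and its values spanned 0.84. Pearson correlations between pairs of the 10 genes over the 6 mice, given as a description, had a median of 0.82 over 45 pairs. Of these, 38 were above 0, and the highest, 0.99, was between Prkcd and Gbx2. Over the 5 other mice the median was -0.20 and 19 of the 45 were above 0. Prkcd and Plekhg1 kept a correlation of 0.91 there, where duplication mouse 2 was highest in both. Lef1 and Adarb1 kept 0.86, Ntng1 and Adarb1 0.85, and Lef1 and Chrnb4, at 0.20 over 6 mice, had 0.88 over 5. The pairs named were picked from the 45 for high values over 5 mice. Others turned negative, such as Tcf7l2 and Adarb1, at 0.88 over 6 mice and -0.88 over 5.

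Outside the 10, the genes most like their mean were sought among 557 genes whose log2 values averaged 6 or more and spanned at least 1 over the 6 mice. The 10 with the highest Pearson correlation over the 6 mice, 0.95 to 0.99, were Lhfp, the GABA-A receptor subunit gene Gabra4, Mb21d2, the pyruvate dehydrogenase phosphatase gene Pdp1, the phosphatase gene Ptpn4, Rasd2, Scrt1, the phospholipase gene Plcb4, Cgrrf1 and the receptor partner gene Ramp3. Lhfp had 7.09, 7.18 and 8.44 in the duplication mice and 7.05 to 7.11 in wild type. Over the 5 mice without duplication mouse 3 the correlations of the 10 genes were -0.29 to 0.81, and the span and mean asked of the 557 genes were also taken with that mouse, which favours genes that are high in it. Of single genes, the most like Rorb was the calmodulin-binding gene Pcp4, at 0.996 over 6 mice and 0.97 over 5. Pcp4 had 11.03, 10.57 and 12.01 in the duplication mice and 10.48, 10.67 and 10.54 in wild type, with duplication mouse 1 second as for Rorb. The others were Pdp1 for Tcf7l2, Lhfp for Prkcd, AI593442 for Plekhg1, Sel1l3 for Lef1 and Cabp1 for Ntng1. Gabra4 was the most like Gbx2, Lrrc4c Slc17a6, Ifi27 Chrnb4 and Kcnc2 Adarb1. These correlations were 0.93 to 0.99 over 6 mice and 0.65 to 0.97 over 5. Each was the highest of 557, and Gbx2 and Chrnb4 lay below the array median in all 6 mice.

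A list of 20 other thalamus genes followed the same mouse. In duplication mouse 3, 17 of the 20 were highest of the 6 mice, beside 18.4% of all genes, and 14 lay at least 1 above the wild-type mean, beside 1.22%. The mean of the list was 6.95 in that mouse, 5.12 and 4.78 in duplication mice 1 and 2 and 4.68 to 5.02 in wild type. Tnnt1, a troponin gene, had 4.09, 3.95 and 8.15 in the duplication mice and a mean of 3.86 ± 0.12 (SD, n = 3) in wild type. Synpo2, an actin-binding gene, had 3.67, 3.22 and 7.71 against 3.22 to 3.77. The homeobox gene Shox2 had 2.79, 2.80 and 6.93 against 2.62 to 2.77. In duplication mouse 3 each of these 3 lay farther above wild type than any of the 10 genes. The 3 that were not highest there were Lhx2, Lhx9 and Vipr2, named after their values were seen.

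Between the genotypes 18 of the 20 were higher in the duplication mice and the median log2 difference was 0.85, beside 41.7% and a median of -0.02 for all genes. Limma called 0 of them adjusted over all probe sets and 0 at an unadjusted p under 0.05, beside 3.17% of all genes. Groups did not overlap for Shox2, Slitrk6 and Cdh6, 3 of 20 beside 8.29%. Without duplication mouse 3, 14 of 20 were higher with a median of 0.11, beside 42.3% of all genes. With duplication mouse 2 alone, without the mouse of mismatched sex genes and the mouse with high thalamic values, 10 of 20 were higher with a median of 0.02, beside 45.1% of all genes. Leaving out a mouse for its high thalamic values lowers these counts by construction. The list was compiled with earlier results of these mice known.

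**Figure D3:**
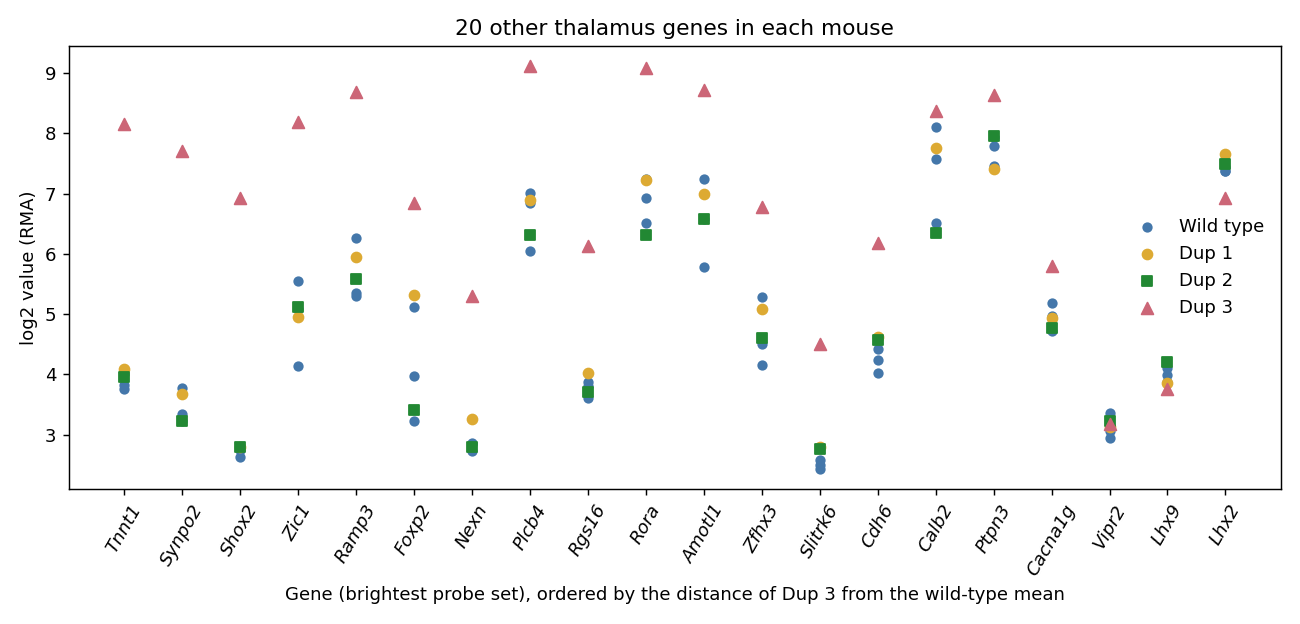
Log2 value (vertical axis) of 20 other thalamus genes in the 3 wild-type mice (blue) and in duplication mice 1, 2 and 3 (Dup 1, 2, 3), each gene by its brightest probe set and ordered by the distance of Dup 3 from the wild-type mean. Dup 3 is the highest mouse for 17 genes, and lies below all wild-type mice for Lhx2 and Lhx9.

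Other habenula genes were divided. Of 13 measured, 8 were highest in duplication mouse 3 and 3 lay at least 1 above the wild-type mean, beside 18.4% and 1.22% of all genes. Gpr151, an orphan receptor gene of habenular neurons, had 3.08, 3.23 and 5.36 in the duplication mice and 3.04 to 3.26 in wild type. Gng8, a G protein subunit gene, had 3.49, 3.72 and 5.38 against 3.49 to 3.95. Tac2, the neurokinin B gene, had 5.85, 4.48 and 7.02 against 4.49 to 6.35, with wild-type mouse 2 next to duplication mouse 3. The genes of acetylcholine synthesis and uptake, Chat and Slc5a7, lay below the array median in all 6 mice, as did Pou4f1, Nhlh2, Wif1 and Chrna5. The mean of the list was 3.91 to 4.59 in duplication and 3.92 to 4.11 in wild-type mice. Between the genotypes 11 of 13 were higher, beside 41.7% of all genes, with a median of 0.09. Limma called 0, also at an unadjusted p under 0.05, which 3.17% of all genes passed. Without duplication mouse 3, 5 of 13 were higher with a median of -0.03, beside 42.3% of all genes.

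As a list, Wnt partners and targets of Tcf7l2 and Lef1 lay 0.08 above wild type in duplication mouse 3. Of 25 measured, 6 were highest in that mouse, beside 18.4% of all genes, and 0 lay at least 1 above the wild-type mean, beside 1.22%. Both counts are near those shares. List means were 5.84 to 5.87 in duplication and 5.77 to 5.83 in wild type. The calcium channel gene Cacna1g, which also stands in the list of thalamus genes, had 4.94, 4.77 and 5.79 in the duplication mice and 4.72 to 5.18 in wild type. Beta-catenin itself, Ctnnb1, had 11.26 to 11.44 and 11.25 to 11.36. Limma called 0 of 25, and 1, Apc, at an unadjusted p under 0.05, beside 3.17% of all genes. A single call in 25 genes is near that share.

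Paralogs of the 10 genes had a median distance from wild type of -0.01 in duplication mouse 3. Of 21 measured, 8 were highest in that mouse, beside 18.4% of all genes, and 2 lay at least 1 above the wild-type mean there, beside 1.22%. The 2 were Rora, the relative of Rorb, and the kinase gene Prkch. Rora, which also stands in the list of thalamus genes, had 7.22, 6.31 and 9.09 in the duplication mice and 6.51 to 7.24 in wild type. Prkch had 5.42, 5.21 and 6.96 against 5.09 to 5.48. Prkca, another kinase C gene, was at 8.73 in duplication mouse 3, below the 9.33 to 9.55 of wild type. Slc17a7, the transporter VGLUT1 of hippocampal and cortical neurons, had 8.06, 7.82 and 7.87 in duplication mice and 7.57 to 8.46 in wild type. Limma called 0 of 21, also at an unadjusted p under 0.05, which 3.17% of all genes passed. In the duplication mice 8 were higher and 13 lower, with a median of -0.01, where 41.7% of all genes were higher.

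Of 9 other nicotinic receptor subunit genes, 5 lay below the array median in all mice and limma called 0. In the duplication mice 3 were higher and 6 lower, with a median of -0.05, where 41.7% of all genes were higher. Chrna3, which is joined to Chrnb4 in habenular receptors, had 3.21, 3.04 and 3.99 in the duplication mice and 3.09 to 3.15 in wild type. Of 4 genes for netrin-G2 and the ligands of netrin-G proteins, limma called 0, with 2 higher, 2 lower and a median of 0.01. In both lists 0 passed an unadjusted p under 0.05, beside 3.17% of all genes. Lrrc4c, the ligand of netrin-G1, had 8.22, 7.69 and 8.71 in the duplication mice and 7.74 to 8.33 in wild type.

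Markers of hippocampal fields and of other neighbouring tissue stood apart in duplication mouse 3 as well, and their part in the result was not tested. All 9 measured CA1 genes lay below every wild-type mouse there, beside 32.1% of all genes, with a list mean of 6.02 against 7.53 to 7.97. Nr3c2, the mineralocorticoid receptor gene, had 6.15 against 8.76 to 8.96. The mean of 10 dentate genes was 5.26 against 6.53 to 6.90, and that of 8 genes of CA3 and CA2 6.40 against 6.88 to 7.15. Of the dentate genes 7 lay below every wild-type mouse and 1 above. Of the CA3 and CA2 genes 5 lay below and 1 above. All 13 striatal genes lay above every wild-type mouse, beside 23.4% of all genes, with a mean of 7.14 against 4.87 to 5.34. The 9 oligodendrocyte genes had 9.79 against 9.03 to 9.61, and the 12 neocortex genes, Rorb among them, 6.76 against 6.17 to 6.33. The neocortex genes were divided, with 6 above every wild-type mouse and 3 below, beside 23.4% and 32.1% of all genes. Cux2 had 8.56 against 6.27 to 6.66, whereas Fezf2 had 5.17 against 6.16 to 6.85.

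The lists did not single out the same mice. Duplication mouse 1 was also low in CA1 and dentate genes. Of these, 6 of 9 and 8 of 10 lay below every wild-type mouse, beside 29.5% of all genes. The list means were at -0.68 and -0.79 from wild type. Duplication mouse 2 went the other way in these lists, with 6 of 9 CA1 and 7 of 10 dentate genes above every wild-type mouse, beside 21.7%. Its list means were 0.33 and 0.70 over wild type, while its neocortex mean was at -0.52. The mean of the CA3 and CA2 genes lay at -0.11 in duplication mouse 1 and -0.01 in duplication mouse 2. In duplication mouse 1 the striatal mean lay 1.08 above wild type, with 12 of 13 genes above every wild-type mouse, while the other thalamus genes lay 0.26 above it and the 10 genes at -0.09. For choroid plexus, the tissue of the ventricles, the highest mean was that of wild-type mouse 1, at 7.25, followed by 6.48 and 6.25 in duplication mice 3 and 1, and the thalamus genes were not high in wild-type mouse 1. Means of 11 hypothalamus genes were 3.60 to 3.83 in duplication and 3.60 to 4.03 in wild type, and those of 10 midbrain and brainstem genes 3.26 to 3.47 and 3.27 to 3.54. Of these, 6 and 7 lay below the array median in all mice. The 10 meninges genes had 5.43 to 5.57 and 5.73 to 5.84.

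**Figure D4:**
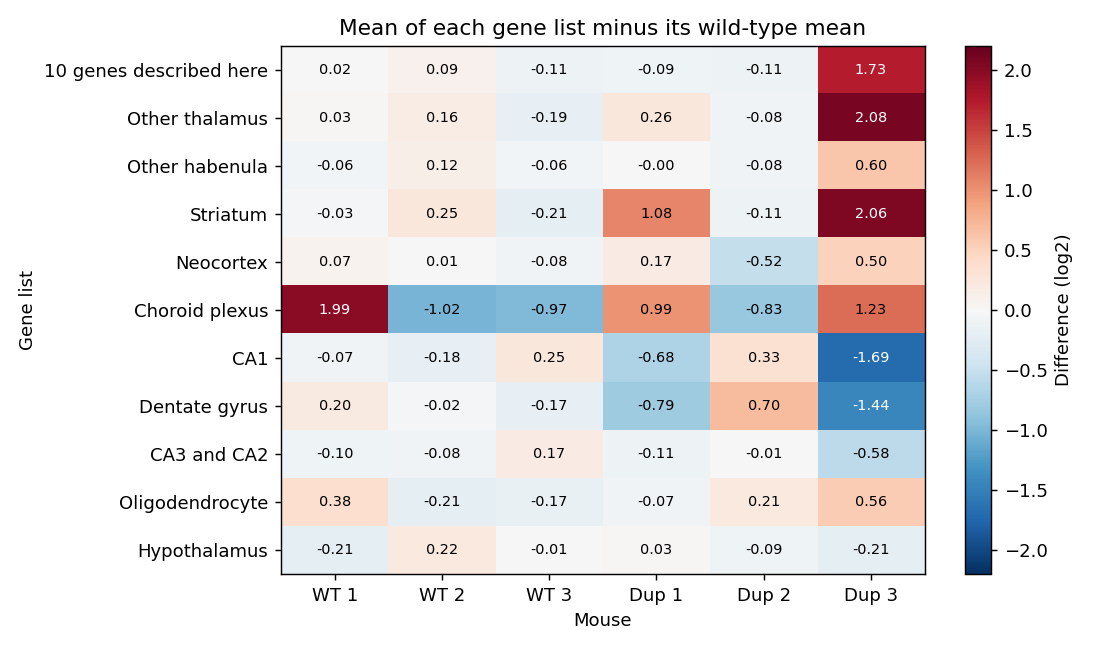
Mean of each gene list minus its mean over the 3 wild-type mice (colour and printed value, log2), for each wild-type (WT) and duplication (Dup) mouse. The 10 genes, at 1.73, and the other thalamus genes, at 2.08, are high in Dup 3 and within 0.26 of wild type in the other mice, whereas striatal genes are also high in Dup 1 and choroid plexus genes in WT 1, Dup 1 and Dup 3.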

How the data were processed

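The deposited log2 values, 1 per probe set and array, were made by the authors with RMA, per the submitters' processing notes, which corrects background, normalizes quantiles over the arrays and summarises probes. Neither the RMA version nor the scanner settings were given in the sources used here. Label protocols list other organs and speak of pools, and the tissue and individual of each sample record were used.

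Values were used as deposited, without 64 control probe sets, leaving 45037, of which 34945 had 1 gene symbol, 932 several and 9160 none. No detection calls were used, and the number of arrays limits the precision. Quantile normalization makes the arrays alike in distribution, so a shift of most genes would not show.

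Duplication and wild type were compared with limma 3.58.1 (R 4.3.3; lmFit, eBayes, two-sided, threshold 0.05 after Benjamini-Hochberg over 45037 probe sets), tested on simulated data. Differences of single mice and gene lists were described without a test. The members, lists and naming rule (all members; the 3 genes of a list farthest from wild type in any mouse; the 10 genes most correlated with the members' mean) were chosen with earlier results of these data known. The rule's genes are named for the lists the text turns on. Alternatives were 3 scalings, other variance models, filters, probe set choices and each mouse left out.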

Additional observations from a re-analysis of the deposited data

How the results depend on the processing

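Limma called 0 of the 10 genes, or of those left after a filter, in every alternative run, whether with 3 other scalings, array weights, an intensity trend with robust prior, a plain equal-variance statistic, filters on dim probe sets, other probe set choices or a mouse left out. Over all probe sets it called 0 in the fit as reported and 0 in each of these except 1 with the intensity trend and robust prior and 1 with array weights. At an unadjusted p under 0.05, 1272 probe sets were called, between 850 and 2765 with a mouse left out. Of the 10 genes, 0 passed this threshold, but 2 did without duplication mouse 1, 1 without duplication mouse 2 and 1 without wild-type mouse 2. In these runs 1031, 2765 and 1166 of all 45037 probe sets passed it, in the same order. The median difference of the 10 genes between the genotypes was 0.23 to 0.25 under the other scalings and -0.10 to 0.71 with a mouse left out. It was -0.11 with duplication mouse 2 alone. The distance of duplication mouse 3 from wild type was 1.17 with the mean over all probe sets of a gene and 1.83 with the probe set of the largest range, and that of wild-type mouse 3 was -0.23 with the latter. In each scaling 9 of 10 genes were highest in duplication mouse 3. Of other thalamus genes 14 to 19 of 20 were higher with a mouse left out and 10 with duplication mouse 2 alone. Of other habenula genes 5 to 11 of 13 were higher with a mouse left out, 5 without duplication mouse 3, and 7 with duplication mouse 2 alone. Alternatives with duplication mouse 2 alone and those of the lists were chosen after seeing the data. No paired analysis was possible because the labels give no numbers that the groups share. Signals below the array median limit Gbx2 and Chrnb4 in all 6 mice and Tcf7l2 and Lef1 in 3 of 6.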

Other observations

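Wild-type mouse 2 had high values of some genes besides Slc17a6, named after their values were seen. Calb2, the calretinin gene of thalamus, habenula and interneurons, had 8.10 in it, against 6.52 and 7.58 in the other wild-type mice and 8.37 in duplication mouse 3. Tac2 had 6.35, against 4.84 and 4.49. Avp, the vasopressin gene, had 5.44, against 3.47 to 3.90 in the other 5 mice, duplication mouse 3 included. Trh, the thyrotropin-releasing hormone gene, had 4.58 there and 5.72 in duplication mouse 1, against 3.16 to 3.68 in the others. The mean of the 11 hypothalamus genes, Avp and Trh among them, was 4.03 in wild-type mouse 2. Their median distance from the wild-type mean was 0.05 in that mouse.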
